A study of Mus musculus with 2 samples.

Results

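The genes of oxidative phosphorylation were followed in single-cell RNA-seq of perfused mouse hepatocytes, with and without induction of an activated YAP. Members were taken by gene symbol: all genes with the mt- prefix, the Nduf genes other than the Ndufaf assembly factors, the Uqcr genes, the Cox4 to Cox8 genes, the Atp5 genes, and Sdha to Sdhd. This gave 98 of the 31053 genes of the count table, of which 13 are encoded by the mitochondrial genome and 85 by the nucleus. The comparison asked how the mitochondrially encoded (mt) and the nuclear-encoded mRNAs of each respiratory complex stood to each other in the 2 libraries, per cell barcode and per cell class.

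Both libraries came from C57BL/6 mice that carry LaptTA, the tetracycline transactivator under the LAP promoter, which restricts it to the liver. The control animal (LaptTA;WT) had no inducible transgene. The tetYAP 4W animal (LaptTA; tetYAP) also carried YAP S127A, a mutant YAP that escapes inhibitory phosphorylation, and had been induced for 4 weeks. The transgene is kept silent by doxycycline in the food and is induced when 4-week-old mice return to a regular diet. The doxycycline history of the control animal is not given in the sources used here. Each group is 1 library, so no test between groups was possible, every interval covers counting error only, and transgene, animal and library cannot be told apart. The animals also differed in sex by their transcripts: Xist had 3 unique molecular identifiers (UMIs) in control and 4859 in tetYAP 4W barcodes, and Ddx3y had 400 and 0. By the study's methods, both libraries of perfused liver were 3′ v3 libraries.

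Oxidative phosphorylation couples the oxidation of NADH and succinate to ATP synthesis in the inner mitochondrial membrane. Electrons enter at complex I (NADH dehydrogenase) or complex II (succinate dehydrogenase), pass through complex III (cytochrome bc1) to complex IV (cytochrome c oxidase), and the proton gradient that results drives complex V (ATP synthase). Complexes I, III, IV and V are built from subunits of both genomes, whereas complex II is wholly nuclear-encoded. The mitochondrial genome is transcribed as long precursors by its own polymerase, and the mt mRNAs are cut out of them, while each nuclear gene has its own promoter. Hepatocytes are rich in mitochondria, so a large share of their RNA is mt mRNA.

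The members comprised 38 nuclear and 7 mt subunits of complex I, 4 nuclear subunits of complex II, 8 nuclear and 1 mt of complex III, 18 nuclear and 3 mt of complex IV, and 17 nuclear and 2 mt of complex V. The complex was assigned by symbol alone, with every Nduf gene, Ndufa4 among them, under complex I. Sums and counts of complexes I and IV rest on this assignment, and the complex a protein joins was not examined. No UMI was counted for 4 of the members in any barcode, namely Cox7b2, Cox8b, Cox8c and the row Atp5o. A row named Atp5o.1 had UMIs, was kept as a member by its symbol, and was the 1 member not found in RefSeq by name. The other 97 matched RefSeq on GRCm38.p6, the assembly that mm10 names. The 13 mt genes lie on the mitochondrial chromosome between mt-Nd1 (MT, bases 2751 to 3707) and mt-Cytb (bases 14145 to 15288), and all but mt-Nd6 are read from the same strand. mt-Atp8 (7766 to 7969) overlaps mt-Atp6 (7927 to 8607), mt-Nd4l (9877 to 10173) overlaps mt-Nd4 (10167 to 11544), and mt-Nd6 (13552 to 14070) overlaps the end of mt-Nd5, so the split of UMIs within each pair is uncertain.

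The nuclear members have no common promoter, but some share short motifs near their start sites. Each motif was searched on both strands as exact letters. In RefSeq windows of 300 bases, from 250 before to 50 after the start site, 74 windows belonged to 69 nuclear member genes. The palindromic NRF1 motif, bound by a regulator of nuclear respiratory genes, was found in 5 of the 74 windows (6.76%) and in 0.971% of all 32851 windows. CCGGAAG, the core bound by GABPA and other ETS factors, was found in 16 windows (21.6%, against 8.86% of all), and AAGATGGCG, bound by YY1, in 7 (9.46%, against 1.40%). The TATA box letters TATAAA were found in 8 windows (10.8%, against 13.6%). At least 1 of the NRF1, GABPA and YY1 motifs was present in 25 windows (33.8%, against 10.8%). A match describes the letters of a window only, and a factor's binding was not measured. One window per complex is printed below to show such a motif beside the values, that of the member with the lowest ratio between libraries among those holding NRF1, GABPA or YY1 letters. The sequences are from RefSeq on GRCm38.p6, written 5′ to 3′ on the strand of the gene, with AAGATGGCG in Ndufc1 and CCGGAAG or its reverse complement in the others in capitals.
Ndufc1 (chr3:51408906-51409205, minus strand): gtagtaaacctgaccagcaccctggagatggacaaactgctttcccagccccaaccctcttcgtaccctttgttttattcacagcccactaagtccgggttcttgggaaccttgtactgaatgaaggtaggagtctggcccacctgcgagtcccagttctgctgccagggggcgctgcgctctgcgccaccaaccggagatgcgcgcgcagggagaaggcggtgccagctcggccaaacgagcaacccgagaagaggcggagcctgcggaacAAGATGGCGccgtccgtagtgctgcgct
Sdhb (chr4:140961021-140961320, plus strand): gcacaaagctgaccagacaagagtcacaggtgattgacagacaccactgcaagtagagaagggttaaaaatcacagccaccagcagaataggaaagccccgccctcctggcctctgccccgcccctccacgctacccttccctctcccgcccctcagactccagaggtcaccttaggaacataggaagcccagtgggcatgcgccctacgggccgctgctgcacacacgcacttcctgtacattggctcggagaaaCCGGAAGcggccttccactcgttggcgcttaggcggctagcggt
Uqcrh (chr4:116075021-116075320, minus strand): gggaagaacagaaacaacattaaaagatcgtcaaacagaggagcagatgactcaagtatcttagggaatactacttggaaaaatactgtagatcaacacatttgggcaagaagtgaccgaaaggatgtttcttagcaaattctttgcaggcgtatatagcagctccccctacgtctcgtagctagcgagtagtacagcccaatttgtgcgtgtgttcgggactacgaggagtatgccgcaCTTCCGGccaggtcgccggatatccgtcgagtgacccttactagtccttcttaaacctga
Cox8a (chr19:7217567-7217866, minus strand): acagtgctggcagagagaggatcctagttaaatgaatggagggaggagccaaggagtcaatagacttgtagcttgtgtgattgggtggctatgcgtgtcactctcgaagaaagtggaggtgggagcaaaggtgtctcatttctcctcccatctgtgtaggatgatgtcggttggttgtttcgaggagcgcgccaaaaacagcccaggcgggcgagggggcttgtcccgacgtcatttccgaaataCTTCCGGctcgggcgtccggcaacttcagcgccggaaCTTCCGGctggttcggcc
Atp5e (chr2:174464052-174464351, minus strand): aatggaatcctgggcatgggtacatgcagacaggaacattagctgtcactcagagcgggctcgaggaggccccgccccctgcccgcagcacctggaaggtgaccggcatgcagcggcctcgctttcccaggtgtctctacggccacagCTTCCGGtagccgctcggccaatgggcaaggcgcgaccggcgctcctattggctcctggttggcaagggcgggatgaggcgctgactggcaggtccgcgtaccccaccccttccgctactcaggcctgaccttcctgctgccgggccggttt
In the windows of Ndufc1 and Sdhb the motif follows the start site, in those of Uqcrh and Atp5e it precedes it, and the window of Cox8a holds it across the start site and again after it. None of the motifs overlapped another in these windows. All 5 genes were called lower in tetYAP 4W hepatocyte-like barcodes, as given below.

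The control library held 2989 barcodes and 9509885 UMIs (median 3117 per barcode), against 1524 barcodes with 6777210 UMIs (median 4150) for tetYAP 4W. UMIs per barcode ran from 516 to 7277 in control and from 2355 to 7493 in tetYAP 4W, after the study's upper limit of 7500. The libraries shared 0 barcode sequences. Yap1, to which transgene transcripts may or may not be assigned, had 137 UMIs in control and 56 in tetYAP 4W hepatocyte-like barcodes (16.7 and 19.0 CPM, UMIs scaled to the library's total). Barcodes were clustered without the members, and 2629 control and 681 tetYAP 4W barcodes fell in clusters called hepatocyte-like. These held hepatocyte markers and no markers of another class at a raised level. Each of these clusters came from a single library (control clusters 0, 2 and 4, tetYAP 4W clusters 14 and 15). Hepatocyte marker transcripts were present in barcodes of all classes. Their median was 387 UMIs per hepatocyte-like and 380 per other control barcode, and 370 and 287 in tetYAP 4W barcodes, so the control class rests on the absence of other markers. Clusters 4 and 14 were rich in the nuclear-retained RNAs Malat1 and Neat1, and one tetYAP 4W cluster of 141 barcodes led by Ppbp, Pf4 and Ltbp4 stayed unnamed.

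mt mRNAs made up a much larger part of tetYAP 4W than of control hepatocyte-like barcodes. The mt share of UMIs ranged from 1.98% to 78.0% over the 2629 control barcodes, with a median of 28.2% (quartiles 24.5% and 32.4%). Over the 681 tetYAP 4W barcodes it ranged from 8.11% to 86.8%, with a median of 57.8% (44.8% and 64.1%). The ranges overlapped, while the quartiles did not. Above 50% mt lay 39 control barcodes (1.48%, exact interval 1.06 to 2.02%) and 474 tetYAP 4W barcodes (69.6%, 66.0 to 73.0%). Of the 39, 28 were of cluster 4, and of the 474, 20 were of cluster 14. Over summed UMIs the mt share was 29.0% (28.9 to 29.0%) in control and 55.2% (55.1 to 55.3%) in tetYAP 4W.

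The nuclear members stood the other way. They made up 3.26% of all UMIs in control (3.25 to 3.27%) and 1.15% in tetYAP 4W hepatocyte-like barcodes (1.14 to 1.16%). Leaving mt UMIs out of the total, they made up 4.59% and 2.57%, so their share was lower on either total. Per barcode, the medians were 873 and 2283 mt UMIs, 101 and 44 nuclear member UMIs, and 2195 and 1787 UMIs of all non-mt genes. The number of barcodes does not enter these medians, but they depend on the depth and the UMI limits of each library. More mt RNA and loss of other RNA cannot be told apart in such counts. For each nuclear member UMI there were 8.89 mt UMIs in control (8.85 to 8.92) and 48 in tetYAP 4W (47.4 to 48.5), a 5.40-fold difference.

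**Figure D1:**
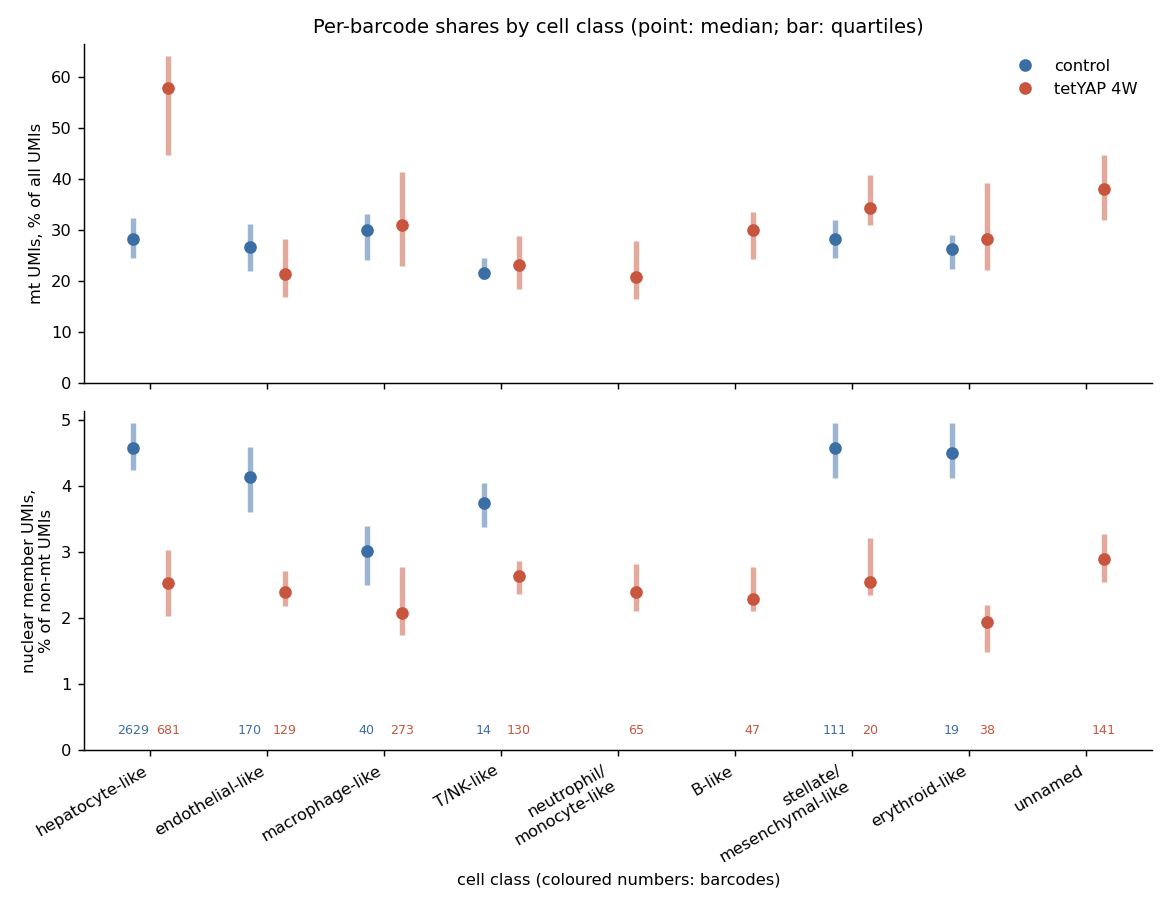
Share of mt UMIs among all UMIs (upper panel, percent) and of nuclear member UMIs among non-mt UMIs (lower panel, percent) per barcode, by cell class and library. Points are medians and bars span the quartiles. The mt share of tetYAP 4W hepatocyte-like barcodes (median 57.8%) stands above all other classes, while the nuclear share of tetYAP 4W lies below that of control in each of the 6 classes held by both libraries.

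The 4 complexes of mixed origin gave like ratios. In complex I, mt UMIs per nuclear UMI were 5.59 (5.55 to 5.63) in control and 27.7 (27.2 to 28.2) in tetYAP 4W hepatocyte-like barcodes, a change of the nuclear to mt ratio of -2.31 on the log2 scale (-2.34 to -2.28). In complex III they were 7.03 and 38.0, a change of -2.44 (-2.48 to -2.39). In complex V they were 6.09 and 34.8, a change of -2.51 (-2.55 to -2.48). Complex IV, with the catalytic subunits mt-Co1 to mt-Co3, had 17.3 (17.2 to 17.5) and 101 (98.8 to 103), a change of -2.54 (-2.58 to -2.51). The interval of complex I lay apart from the other 3. Complex II, with no mt subunit, had 1.68 nuclear UMIs per barcode in control (1.63 to 1.73) and 1.01 in tetYAP 4W (0.93 to 1.09).

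All mt members but 1 were more abundant in tetYAP 4W hepatocyte-like barcodes. Ratios are given as log2 of tetYAP 4W over control CPM, and a gene was called where the difference was at least 2-fold and the 95% counting interval excluded 0. Of the 13 mt members, 12 had intervals above 0, with a median ratio of 0.86 (0.83 to 0.88, the medians of the members' bounds), and 3 were called higher, where 13.4% of the 10675 genes tested were. The median of all genes tested was -0.22, and the mt median lay 1.08 above it. On totals without mt genes, which raise the median of all genes by 0.67 to 0.45, 12 of 13 were called higher, against 26.5% of all genes.

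Among the complex I mt subunits, all of which lie in the membrane arm, mt-Nd3 rose most, from 6064 to 15614 CPM (1.36, 1.35 to 1.38). mt-Nd4 had 20192 and 37604 CPM (0.90), and mt-Nd5 had 1500 and 2690 (0.84). mt-Nd1 had 14058 and 24422 CPM (0.80), mt-Nd2 had 15521 and 23791 (0.62), and mt-Nd4l had 1347 and 1911 (0.50). None of the latter 5 reached 2-fold, and each interval lay above 0. mt-Nd6, the only protein gene of the opposite strand, had 1210 UMIs in control and 370 in tetYAP 4W (147 and 126 CPM, -0.23, -0.40 to -0.06). It stood at 0.44 on totals without mt genes, so its direction depended on the scale.

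In complex III, mt-Cytb, the cytochrome b of the quinol sites, had 32184 and 61433 CPM (0.93, 0.92 to 0.94). In complex IV, mt-Co2, which takes electrons from cytochrome c, rose from 34582 to 74424 CPM (1.11, 1.10 to 1.11). mt-Co1, which holds the oxygen-reducing site, had 40568 and 74296 CPM (0.87), and mt-Co3 had 71838 and 128362 (0.84). In complex V, mt-Atp6, the subunit of the proton channel, rose from 51374 to 106822 CPM (1.06, 1.05 to 1.06). mt-Atp8 of the same transcript had 315 and 570 CPM (0.86, 0.77 to 0.95). The 3 genes past 2-fold thus came from complexes I, IV and V.

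The make-up of the mt pool differed between libraries, for some genes in the same direction in all classes and for others not. mt-Nd3 made up 2.09% of mt UMIs in control and 2.83% in tetYAP 4W hepatocyte-like barcodes (log2 ratio of shares 0.43, 0.42 to 0.45). Its share was higher in tetYAP 4W in 6 of the 6 classes held by both libraries, with the interval above 0, as were those of mt-Co2 (11.9% and 13.5% in hepatocyte-like barcodes) and mt-Atp6 (17.7% and 19.4%). mt-Nd2 went the other way in 6 of 6 classes, from 5.36% to 4.31% in hepatocyte-like, from 5.31% to 4.22% in endothelial-like and from 5.21% to 4.11% in macrophage-like barcodes. mt-Nd6 had the lowest ratio of shares in hepatocyte-like barcodes (-1.16, -1.33 to -0.99), with intervals below 0 in 3 classes and on 0 in the other 3, where it had 4 to 53 UMIs per class and library. mt-Co3 made up 24.8% and 23.3%, and mt-Cytb 11.1% in both libraries. mt-Co1 and mt-Nd1 had no common direction. The ratio of shares of mt-Co1 was -0.06 in hepatocyte-like, -0.34 in macrophage-like and 0.03 in endothelial-like barcodes, with intervals apart from 0. That of mt-Nd1 was -0.13 in hepatocyte-like and 0.05 in endothelial-like barcodes, again with intervals apart from 0. Barcodes of 1 library may share free mt RNA, which was not measured, so the classes are not separate evidence. Most control barcodes of the endothelial-like and erythroid-like classes also had few transcripts of their markers. Those of the stellate-like class had shares close to hepatocyte-like ones, as given below.

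**Figure D2:**
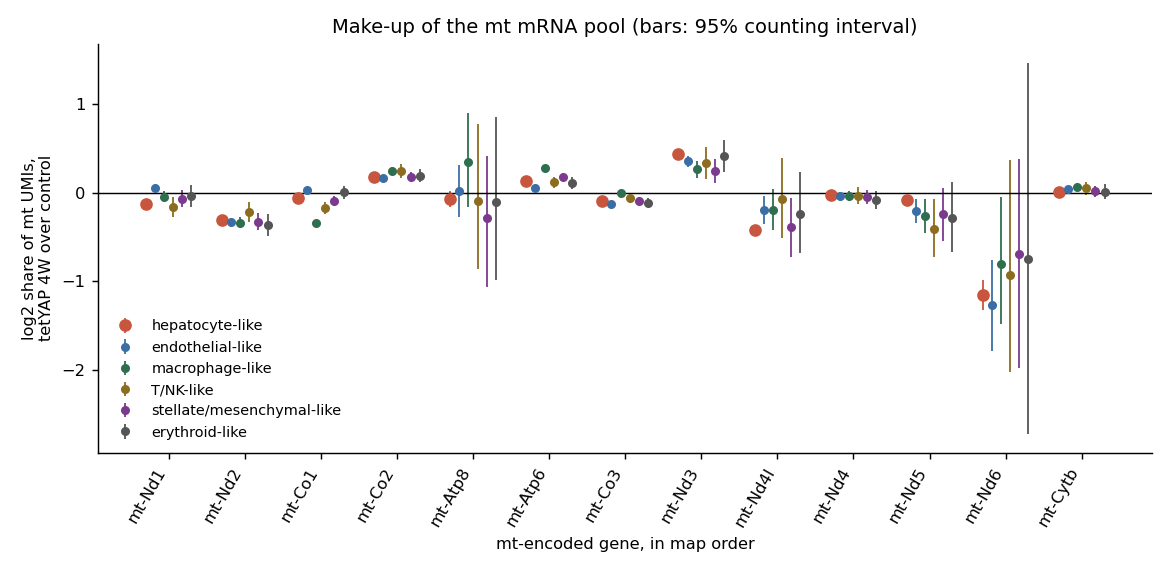
Log2 ratio of each mt gene's share of all mt UMIs, tetYAP 4W over control, for the 6 cell classes held by both libraries, with the genes in map order along the horizontal axis. Points are ratios and bars are 95% counting intervals. mt-Nd3, mt-Co2 and mt-Atp6 lie above 0 and mt-Nd2 below 0 in each class, and mt-Nd6 has the widest bars. Of the 19 control erythroid-like barcodes, 15 had at most 3 haemoglobin UMIs.

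The nuclear members fell together. Of the 85, 78 had at least 10 UMIs over both libraries in hepatocyte-like barcodes, and the 7 below that are 6 subunits of complex IV and the row Atp5o. Of the 78, 73 (93.6%) were called lower in tetYAP 4W, where 16.0% of all genes tested were, and 0 were called higher. The median ratio was -1.46 (-1.64 to -1.30), which is 1.24 below the median of all genes on either scale, and 77 of the 78 lay below 0. The exception, Atp5s, a coupling factor homologue, had 17 and 7 UMIs, and its interval held 0. On totals without mt genes the median was -0.79 (-0.97 to -0.64) and 77 remained below 0, but only 11 (14.1%) passed 2-fold, against 2.52% of all genes. No member's direction but that of mt-Nd6 thus depended on leaving out mt genes, while most calls did.

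Complex I nuclear members had a median ratio of -1.40 (-1.65 to -1.22), with 35 of 38 called lower. The lowest with at least 100 UMIs were Ndufb9, from 563 to 156 CPM (-1.86, -2.0 to -1.72), and Ndufb10, from 325 to 95.4 (-1.77, -1.95 to -1.59), both supernumerary subunits of the membrane arm. Ndufc1, whose window with the YY1 letters is printed above, fell from 378 to 124 CPM (-1.61). Core subunits of the electron-transfer arm lay on both sides of this median. Ndufs1, which holds iron-sulphur clusters, had 44.0 and 24.1 CPM (-0.87, -1.26 to -0.50) and was not called. Ndufv1, which binds NADH and FMN, fell from 138 to 66.9 CPM (-1.05), and Ndufv2 from 118 to 49.9 (-1.24). Ndufs3, Ndufs7 and Ndufs8 fell by 1.43, 1.46 and 1.28 on the log2 scale. The highest ratio among those with at least 100 UMIs belonged to Ndufa9, an accessory subunit, with 69.6 and 41.4 CPM (-0.75, -1.04 to -0.46), which was not called.

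In complex II all 4 genes were called lower, with a median of -1.21 (-1.46 to -0.93). Sdhb, the iron-sulphur subunit, fell from 208 to 83.9 CPM (-1.31, -1.51 to -1.12), and its window is among those printed. Sdha, the flavoprotein that oxidizes succinate, fell from 157 to 74.7 CPM (-1.07, -1.28 to -0.86). Sdhc and Sdhd, the membrane anchors, fell from 88.8 to 41.1 (-1.11) and from 83.1 to 33.6 (-1.31). The 4 intervals overlapped, so no order among them can be read.

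In complex III all 8 genes were called lower (median -1.45, -1.59 to -1.30). Uqcr10 and Uqcrh, small accessory subunits, fell most, from 724 to 209 CPM (-1.80, -1.92 to -1.67) and from 653 to 211 (-1.63, -1.75 to -1.51). Uqcrfs1, the Rieske iron-sulphur protein, fell from 209 to 77.8 CPM (-1.43). The 2 large core proteins had the smallest differences, Uqcrc1 with 161 and 76.4 CPM (-1.07, -1.28 to -0.87) and Uqcrc2 with 107 and 50.9 (-1.07, -1.33 to -0.82). The intervals of the small and the large subunits named did not overlap.

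Complex IV had the lowest median, -1.66 (-1.76 to -1.50), with 11 of 12 called lower. Cox7a2 fell from 842 to 227 CPM (-1.89, -2.01 to -1.78) and Cox7b from 712 to 207 (-1.78, -1.90 to -1.66). Cox8a, with GABPA letters across and after its start site, fell from 1028 to 320 CPM (-1.68, -1.78 to -1.59). Cox4i1, Cox5a and Cox5b, which surround the mt-encoded core, fell from 1341 to 429 (-1.64), from 774 to 264 (-1.55) and from 632 to 193 CPM (-1.71). Cox7a2l, which serves in joining complexes III and IV, was the exception, with 123 and 62.5 CPM (-0.98, -1.21 to -0.75). Over all barcodes its ratio was 0.22 (0.09 to 0.34), with 1225 control and 1014 tetYAP 4W UMIs, whereas Cox7a2 stood at -1.45. The median of all genes was 0.60 there, so both lay below it. Hepatocyte-like barcodes were 2629 of 2989 in control and 681 of 1524 in tetYAP 4W, so these ratios also mix in cell make-up.

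The tissue-specific isoforms of complex IV were near or at 0 in hepatocyte-like barcodes. The heart and muscle isoform Cox7a1 had 37 UMIs in control and 3 in tetYAP 4W (-2.14, -4.49 to -0.48). Cox4i2, the lung isoform, and Cox6a2, the heart and muscle isoform, had 1 and 0 UMIs each, where Cox4i1 had 11019 and 1262 and Cox6a1 2605 and 357. Cox6b2, the testis isoform, had 5 and 4 UMIs, beside 4856 and 653 of Cox6b1. Cox7b2, Cox8b and Cox8c were at 0. Over all barcodes Cox6b2 had 5 and 26 UMIs (2.87, 1.46 to 4.60) and Cox6a2 15 and 27 (1.34, 0.37 to 2.35), the only nuclear members called higher there, against 36.7% of all genes, while 46 of 80 were called lower, against 7.26%. Ndufa4l2, a hypoxia-inducible relative of Ndufa4 counted under complex I by its symbol, had 18 and 4 UMIs, and its interval held 0 (-2.71 to 0.91). Ndufa4 itself fell from 1612 to 504 CPM (-1.68, -1.75 to -1.60). The decrease of the summed UMIs thus lay in the isoforms counted in these barcodes and not in a loss of the rare ones.

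In complex V, 15 of 16 were called lower (median -1.49, -1.63 to -1.35). The row Atp5o.1 fell from 349 to 95.1 CPM (-1.88, -2.06 to -1.70) and Atp5d, the delta subunit of the F1 stalk, from 534 to 173 (-1.63, -1.77 to -1.50). Atp5e, the epsilon subunit, whose window is printed above, fell from 1067 to 356 CPM (-1.59, -1.68 to -1.49). The catalytic beta subunit Atp5b and its partner Atp5a1 had the smallest called differences, from 600 to 296 CPM (-1.02, -1.13 to -0.92) and from 424 to 195 (-1.12, -1.25 to -1.0). The 3 genes for the identical c subunit of the rotor, Atp5g1, Atp5g2 and Atp5g3, had ratios of -1.57, -1.52 and -1.46 with overlapping intervals. Reads of such paralogues and of processed copies may be split by counting, so the ratios of single genes among them are uncertain.

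**Figure D3:**
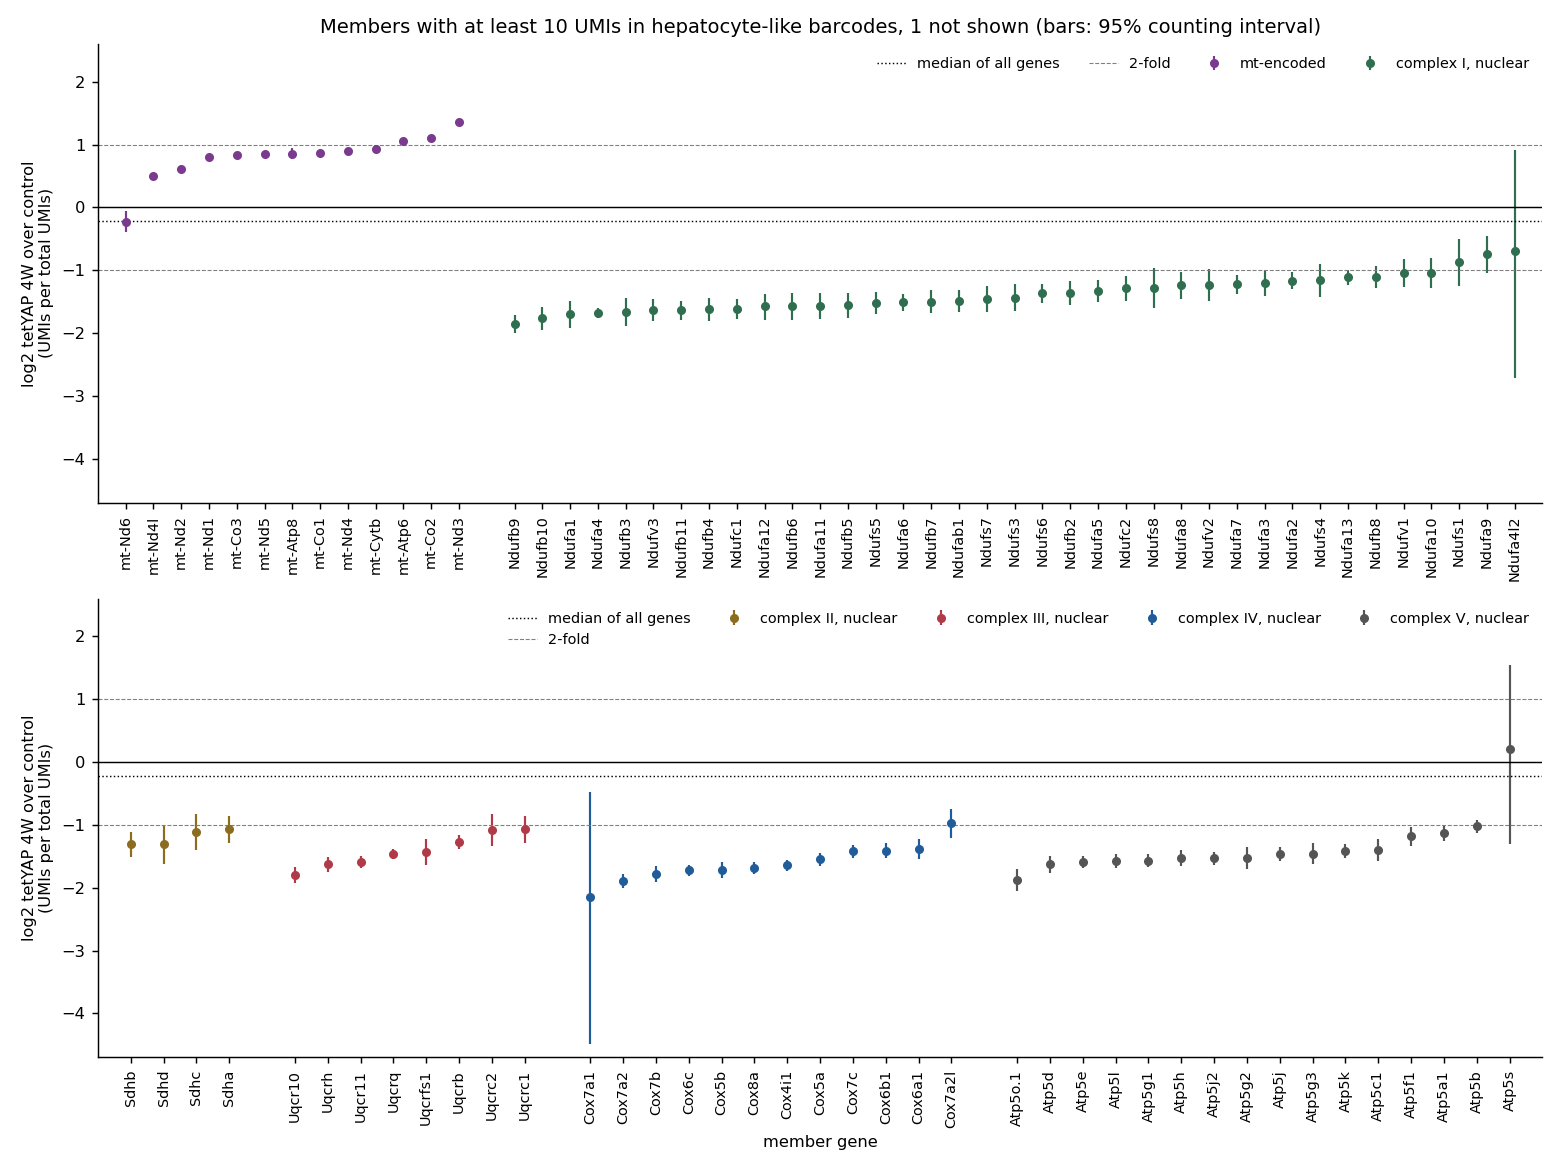
Log2 ratio of tetYAP 4W over control (UMIs per total UMIs) for the members that reached 10 UMIs in hepatocyte-like barcodes (1 not shown), by complex, in increasing order. Points are ratios, bars are 95% counting intervals, and the dotted line is the median of all genes tested (-0.22). All nuclear members shown but Atp5s lie below 0, and all mt members but mt-Nd6 above it.

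By their medians, the listed catalytic or core subunits and the long genes had ratios closer to 0 than the other nuclear members. The 20 catalytic or core nuclear members had a median ratio of -1.26 (-1.50 to -0.99), and the 58 others -1.52 (-1.68 to -1.36), with 19 and 54 called lower. The list of 20 includes Cox4i1, Cox5a and Cox5b, which surround the mt-encoded core and each had a ratio below the median of the others. Ratios rose with coding length: the median was -1.61 for the 17 nuclear members of up to 300 coding bases (each with at least 100 UMIs), -1.50 for 25 of up to 450, -1.43 for 21 of up to 900, and -1.05 for 11 longer ones. The same order held over all genes, at -1.12, -1.08, -0.86 and -0.34. Spearman's rho with coding length was 0.53 over 74 nuclear members and 0.44 over 4684 genes, as a description across genes of the same 2 libraries. Ratios also fell with the control level (rho -0.61 and -0.47). The control level is the denominator of each ratio, so this relation, and the low ratios in bins of that level, are in part by construction. In control, 28 nuclear members and 237 nuclear genes in all (members included) had 200 to 400 CPM, with medians of -1.51 and -1.07. At 400 to 800 CPM, 20 members and 145 genes had -1.53 and -1.11. In both bins all members were called lower, against 54.9% and 57.9% of the genes. Coding length and level moved with the result, and their part in it was not tested.

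The other genes of the pathway had medians closer to 0 than the subunits, and most had fewer UMIs, a level that moved with the ratio as given above. Of 44 assembly factors tested, 23 were called lower and 0 higher (median -1.05, -1.60 to -0.51), where 16.0% of all genes were called lower and 13.4% higher. On totals without mt genes 3 of them, Sdhaf4, Cox16 and Cox18, were called lower, against 2.52% of all genes. Acad9 (1.34, 0.47 to 2.17) and Atpaf1 (1.08, 0.28 to 1.84) were called higher on that scale, against 26.5% of all genes. Among those with at least 100 UMIs, Cox18, which inserts Cox2 in the membrane, had the lowest ratio (121 and 10 UMIs, -2.12, -3.21 to -1.19) and Timmdc1, a complex I factor, the highest (-0.44, -1.05 to 0.13). Of 20 genes for replication, transcription and RNA handling in mitochondria, 7 were called lower (median -0.89, -1.69 to -0.005). Ssbp1, which coats single-stranded mtDNA, had 390 and 58 UMIs (-1.27, -1.69 to -0.87), and Tfam, which packs and transcribes mtDNA, 193 and 31 (-1.16, -1.75 to -0.60). Polg, the mtDNA polymerase, had 83 and 46 UMIs (0.63, 0.08 to 1.17) and was not called. Polrmt, the mitochondrial RNA polymerase, had 39 and 10 (-0.48, -1.65 to 0.55). No gene of this group was called higher per total UMIs, and Polg was on totals without mt genes (1.29).

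Of 8 transcriptional regulators, 0 were called lower and 1 higher (median -0.19, -0.96 to 0.83), where 13.4% of all genes were called higher. Nrf1 was the latter, with 26 and 21 UMIs (1.17, 0.27 to 2.06). Ppargc1a, the coactivator PGC-1 alpha, had 29 and 17 UMIs (0.71, -0.25 to 1.62), Gabpa 107 and 20 (-0.94, -1.71 to -0.24), and Yy1 258 and 62 (-0.58, -1.0 to -0.17). Counts this low leave intervals of more than 2-fold for most of these genes. Of 13 citric acid cycle genes, 5 were called lower, against 16.0% of all genes (median -0.89, -1.25 to -0.54), with Fh1, fumarase, lowest (-1.37, -1.72 to -1.04) and Idh3a highest (-0.27, -0.85 to 0.28). Of 9 carriers, 4 were called lower and 1 higher. Cycs, cytochrome c, had 1871 and 212 UMIs (-1.66, -1.87 to -1.45), and Slc25a4, the heart and muscle ADP/ATP carrier, had 10 and 16 (2.16, 0.93 to 3.46). Of 11 genes of the mitochondrial stress response, 3 were called lower, Atf4 (-1.08, -1.40 to -0.78), Hspe1 and Clpp, and 0 higher. Ddit3 stood at 0.10 (-0.58 to 0.75). On totals without mt genes, 0 genes of the citric acid cycle, carrier and stress lists were called lower, with medians of -0.22, -0.31 and -0.23. Called higher on that scale were the carrier Slc25a4 (2.82, 1.60 to 4.13), Gdf15 of the stress list (1.05, 0.25 to 1.81) and 3 of the 8 regulators, against 26.5% of all genes.

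Within the tetYAP 4W hepatocyte-like barcodes, those with more mt RNA held fewer nuclear member UMIs. The 21 barcodes of up to 20% mt had 98.4 nuclear member UMIs each (94.2 to 103), beside 118 in the 196 such control barcodes (116 to 119). The 67 barcodes of 20 to 30% had 68.0, the 197 of 50 to 60% had 45.8 (44.9 to 46.8), the 210 of 60 to 70% had 39.5 (38.7 to 40.4), and the 67 above 70% had 27.6 (26.4 to 28.9). Over the same bins mt UMIs went from 656 to 3961 per barcode, by construction with the mt share. Non-mt UMIs went from 3709 to 1288. With limited total UMIs this too, and the fall of nuclear member UMIs with it, is in part by construction. Of the 88 barcodes of up to 30% mt, 33 were of cluster 14. Nuclear members made up 1.76% of non-mt UMIs in that cluster and 2.70% in cluster 15. As a share of non-mt UMIs, nuclear members went from 2.65% (2.54 to 2.77%) over 2.97% at 30 to 40% mt to 2.14% (2.05 to 2.24%) above 70%. Control barcodes went from 4.77% (4.71 to 4.83%) at up to 20% mt to 4.15% (4.06 to 4.25%) at 40 to 50%. In each bin held by both libraries, the tetYAP 4W share lay below that of control with intervals apart.

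**Figure D4:**
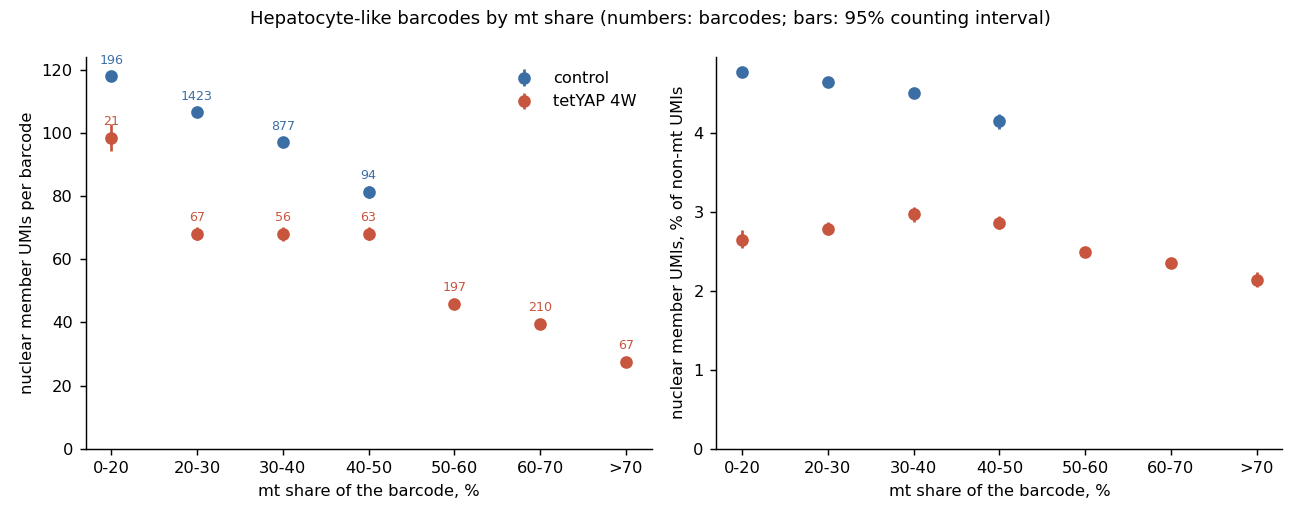
Nuclear member UMIs per barcode (left) and as a percent of non-mt UMIs (right) in hepatocyte-like barcodes, by the mt share of the barcode, with the number of barcodes above each point at left. Bars are 95% counting intervals, and bins of under 20 barcodes are left out. In tetYAP 4W the level per barcode falls from 98.4 to 27.6, and the share of non-mt UMIs stays below that of control in each shared bin.

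Over the 681 tetYAP 4W barcodes, mt UMIs and nuclear member UMIs had a Spearman's rho of -0.52, and over the 2629 control barcodes -0.06. Both counts share the depth of the barcode and the upper limit of 7500 UMIs, so these are descriptions. The mt share rose with total UMIs (rho 0.48 in tetYAP 4W, 0.29 in control). In tetYAP 4W it also rose with the hepatocyte marker share of non-mt UMIs (rho 0.39), which went from 12.3% in the lowest bin to 23.0% at 60 to 70% mt and 20.5% in the highest, and was 17.4% in control barcodes of 20 to 30%. Malat1 and Neat1 made up 2.55% of non-mt UMIs in the lowest bin and 0.329% in the highest. The part of cell damage, depth and nuclear RNA in the mt share was not tested.

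Clusters 4 and 14, rich in Malat1 and Neat1, gave a smaller difference. Their summed mt share was 33.5% in control (104 barcodes) and 38.5% in tetYAP 4W (73 barcodes), and nuclear members made up 3.18% and 1.76% of non-mt UMIs. The median mt shares were 30.2% and 32.2%. Above 50% mt lay 26.9% (18.7 to 36.5%) and 27.4% (17.6 to 39.1%) of these barcodes, with overlapping intervals. The nuclear to mt ratio changed by -1.17 on the log2 scale (-1.23 to -1.10), and 30 of 75 nuclear members were called lower, against 7.71% of all genes. Ndufa9 had 8 and 24 UMIs there (1.81) and was the 1 nuclear member called higher, against 12.8% of all genes. In the remaining hepatocyte-like clusters the change was -2.50 (-2.52 to -2.49), with 73 of 78 called lower, against 23.0% of all genes.

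The lower share of nuclear members was found in other cell classes as well, where the mt share differed less than in hepatocyte-like barcodes. In endothelial-like barcodes (170 control, 129 tetYAP 4W) the median mt share was 26.7% and 21.5%, and nuclear members made up 4.0% and 2.46% of non-mt UMIs. In macrophage-like barcodes (40 and 273) the mt share was 30.1% and 31.0% and the nuclear share 3.07% and 2.16%. In T or NK cell-like barcodes (14 and 130) they were 21.6% and 23.2%, and 3.73% and 2.62%. The nuclear to mt ratio changed by -0.44 in endothelial-like (-0.47 to -0.41), -0.70 in T or NK cell-like (-0.77 to -0.62) and -0.73 in macrophage-like barcodes (-0.79 to -0.68), with intervals apart from the -2.43 of hepatocyte-like barcodes (-2.45 to -2.42). Called lower were 4 of 75 nuclear members in endothelial-like (6.90% of all genes), 5 of 75 in macrophage-like (5.18%) and 8 of 75 in T or NK cell-like barcodes (4.58%), and 1 was called higher in the latter (1.93%). The share called lower was close to that of all genes in the endothelial-like and macrophage-like classes. In stellate or mesenchymal-like barcodes (111 and 20) the mt share was 28.2% and 34.3%. All but 1 of these control barcodes were the 110 of cluster 3, whose values were close to those of control hepatocyte-like barcodes. Cluster 3 had a median mt share of 28.3%, a nuclear share of 4.59% of non-mt UMIs and a median of 388 hepatocyte marker UMIs. Most endothelial-like barcodes came from clusters 1 and 5 in control and from cluster 9 in tetYAP 4W, and stellate-like ones from clusters 3 and 12. The 110 barcodes of cluster 1 were weakly marked, with a median of 3 endothelial marker UMIs and an mt share of 28.8%, close to that of hepatocyte-like barcodes. The 56 barcodes of cluster 5 had 35.5 marker UMIs and an mt share of 22.2%, beside 66 marker UMIs and 21.5% in cluster 9. Most of the difference in mt share between the 2 endothelial-like sets thus came from the weakly marked cluster 1 of control. In classes with at most 4 control barcodes, the tetYAP 4W median mt share was 20.7% in 65 neutrophil or monocyte-like and 38.1% in the 141 unnamed barcodes.

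Erythroid cells lose mitochondria as they mature, which bears on their mt RNA and not directly on their nuclear-encoded mRNAs. Their barcodes were set beside the hepatocyte-like ones, and whether the RNA in them was their own or free in the suspension was not tested. In control, 19 erythroid-like barcodes held 103 nuclear member UMIs each (98.1 to 107) beside 102 in hepatocyte-like ones. Only 4 of these 19 had more than 3 haemoglobin UMIs (155 to 1233), and the other 15 left the class in each other clustering tried. The 4 alone held 101 nuclear member UMIs each (91.2 to 111) and 625 mt UMIs (601 to 650). In tetYAP 4W, 38 erythroid-like barcodes held 45.6 (43.5 to 47.8) beside 49.8 (49.2 to 50.3). The counts of nuclear members thus overlapped between these classes in control, with 19 or with 4 barcodes, and lay close together in tetYAP 4W. Their difference between libraries was -1.39 in erythroid-like barcodes, with all 19 of control (-1.49 to -1.30), and -1.50 in hepatocyte-like ones (-1.52 to -1.49). This difference was thus not particular to hepatocyte-like barcodes, and its source was not tested. Called lower were 48 of 70 nuclear members in the erythroid-like class, against 28.3% of all genes, with all 19 control barcodes. The mt mRNAs differed more between the 2 classes than the nuclear members did, most in tetYAP 4W. Control barcodes held 781 mt UMIs in the erythroid-like (768 to 793) and 906 in the hepatocyte-like class (905 to 907), and tetYAP 4W barcodes held 1150 (1139 to 1161) and 2387 (2383 to 2390). The change of the nuclear to mt ratio was -1.73 in erythroid-like barcodes (-1.83 to -1.63) with all 19 of control. It was not computed with the 4 alone, which held fewer mt UMIs each (625 against 781) at a like nuclear level.

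**Figure D5:**
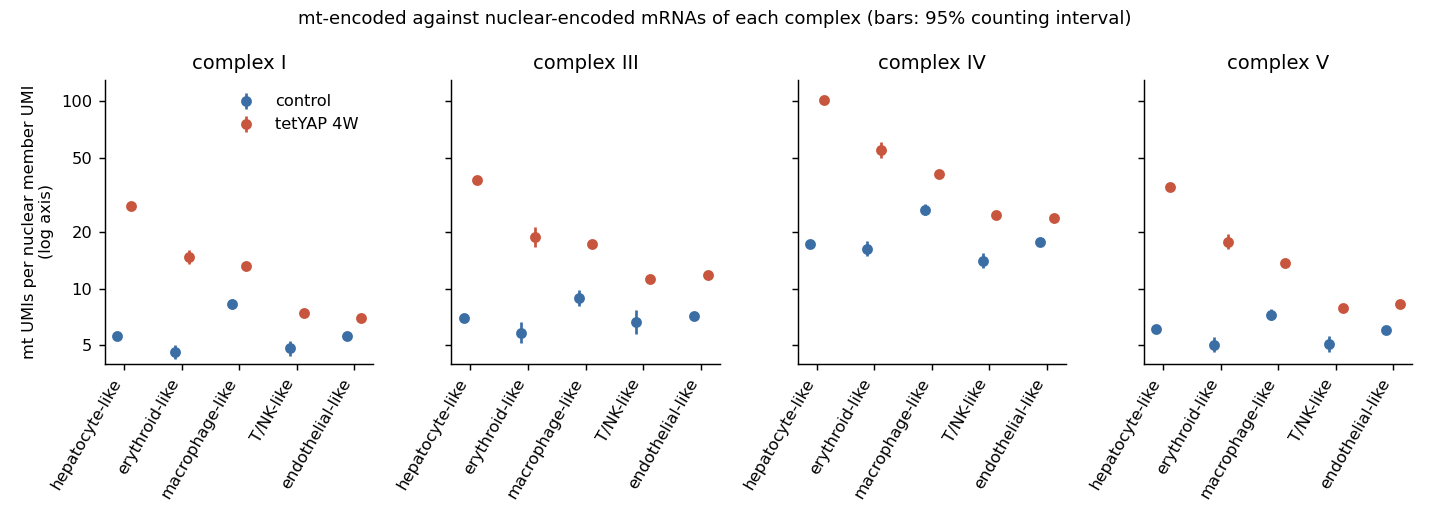
mt UMIs per nuclear member UMI (log axis) for the 4 complexes with subunits of both genomes, by cell class and library. Points are ratios of summed UMIs and bars are 95% counting intervals, mostly smaller than the points. The ratio is higher in tetYAP 4W in each of the 5 classes and 4 complexes shown, most in hepatocyte-like barcodes (101 against 17.3 in complex IV). The control erythroid-like points hold 19 barcodes, of which 15 had at most 3 haemoglobin UMIs.

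The hepatocyte-like class of tetYAP 4W had the highest ratio in each of the 4 complexes. In complex IV, tetYAP 4W barcodes held 101 mt UMIs per nuclear UMI in the hepatocyte-like, 54.9 in the erythroid-like (49.8 to 60.8), 40.9 in the macrophage-like, 24.7 in the T or NK cell-like and 24.0 in the endothelial-like class, and the intervals of the last 2 overlapped (23.8 to 25.6 and 23.2 to 24.8). In control the same classes held 17.3, 16.4 (all 19 erythroid-like barcodes), 26.4, 14.1 and 17.8. Complex III had the largest change of the 4 in endothelial-like barcodes (-0.73, -0.82 to -0.63), where complex I had the smallest (-0.32, -0.38 to -0.26). In complex III the endothelial-like class had 11.8 (11.3 to 12.5) and the T or NK cell-like class 11.3 (10.7 to 11.9), with overlapping intervals.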

How the data were processed

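Per the labels, RNA of perfused hepatocytes was captured in droplets (10x Chromium 3′ v3 libraries, by the study's methods) and 2 libraries were made, 1 control and 1 tetYAP 4W. The deposited values are raw counts (UMIs per gene and barcode) that the authors made with cellranger at default parameters against mm10. The annotation release is not given in the sources used here. By the study's methods, each condition was reduced to 3000 barcodes and any with over 7500 UMIs dropped. Of the 4513 barcodes left here, 2989 are control and 1524 tetYAP 4W, so far more are missing from tetYAP 4W. If the UMI limit took them, the tetYAP 4W set lacks its barcodes of most UMIs. The lowest count kept also differed, 516 UMIs in control and 2355 in tetYAP 4W. Levels and shares per barcode are thus not like for like between the libraries. A share measured per barcode may depend on these limits, and no barcode was removed here for its mt share. Doublets were not removed.

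Groups were read from the genotype labels. Barcodes were clustered with scanpy 1.11.5 after the members were taken out (10000 UMIs per barcode, log scale, 2000 variable genes, 20 principal components, 15 neighbours, Leiden resolution 0.8, 16 clusters). A class was named where 3 of its markers reached 10 UMIs and 3 times their level outside the cluster in the same library. Clusters with none, with hepatocyte markers detected, were called hepatocyte-like. The scoring rule was set after the data were seen. UMIs were summed over barcodes and scaled to the total (CPM). Counts under 3 were set to a floor of 3 per library. Ratios carry exact conditional binomial 95% intervals, sums exact Poisson and shares Clopper-Pearson intervals. UMIs of 1 library are not independent animals, so intervals and floors cover counting error only. Medians carry the medians of the members' bounds. Genes with at least 10 UMIs over both libraries were tested for a 2-fold difference.

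Named genes were all mt members, the 2 highest and 2 lowest nuclear members of each complex with at least 100 UMIs, isoform families, core subunits, and the highest and lowest of other pathway lists. Others (Ndufc1, Cox8a, Atp5e, Tfam, Polrmt, Slc25a4, Atf4, Acad9, Atpaf1, Gdf15, single regulators and Atp5s) were named after their values were seen. The members and lists were chosen with earlier results of these data known. One nuclear member is part of the sums and counts but is not reported here by itself. Coding lengths came from GENCODE transcripts of an older mouse build matched by symbol (84 of 85 nuclear members), and its coordinates were not used. The ratio function was tested on simulated counts. Alternatives covered barcodes, clustering, scaling (edgeR 4.0.16 only for TMM factors, the DESeq2 median of ratios formula, totals without mt genes), minimum counts and weighting. Analyses used Python 3.11.15 and R 4.3.3.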

Additional observations from a re-analysis of the deposited data

How the results depend on the processing

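With 1 library per group no replicate can be left out, and intervals are for counting error, so most changes of setting moved a value beyond its interval while keeping its direction. The exception in direction was a limit of 30% mt UMIs, a limit on the measure itself that kept 1619 control and 88 tetYAP 4W hepatocyte-like barcodes. It gave mt shares of 24.8% and 21.9%, a summed mt ratio of -0.18 and a summed nuclear ratio of -0.71. The nuclear median was -0.63 and the change of the nuclear to mt ratio -0.53. Called lower were 8 of 78 nuclear members, against 1.37% of all genes, and the median of all genes was 1.07. The limit removes the barcodes rich in mt RNA, which bounds the mt share in both libraries but does not fix the sign of their difference. Of the 88 tetYAP 4W barcodes kept, 33 were of cluster 14, and of the 1619 control barcodes 51 were of cluster 4. Why the mt sum turned was not tested.

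Of all barcodes, 2629 of 2989 in control and 681 of 1524 in tetYAP 4W were hepatocyte-like, and the median ratio of all genes was 0.60. Over all barcodes the mt shares were 28.7% and 40.5%, the mt ratio 0.50, the nuclear ratio -1.13, the nuclear median -1.08, the ratio change -1.63 and the calls 46 (7.26% of all genes were called lower). Clusters 4 and 14 alone, chosen after the data were seen, gave 33.5% and 38.5%, 0.20, -0.97, -0.91, -1.17 and 30 (7.71% of all genes). Without them the mt shares were 28.8% and 57.1%, the mt ratio 0.99 and the ratio change -2.50. Adding the unnamed cluster gave a tetYAP 4W mt share of 53.1%, ratios of 0.88 and -1.40 and a change of -2.28. Keeping the members in the clustering gave 53.3%, 0.88, -1.41 and -2.29, and weighting barcodes equally gave mt shares of 28.9% and 53.4%, 0.89, -1.40 and -2.29. A Leiden resolution of 1.2 gave a control mt share of 29.0%. A resolution of 0.4 (2774 control barcodes) kept each summary value within its interval and gave 72 calls, against 15.8% of all genes. The control erythroid-like class held 19 barcodes at 0.8 and 4 in the other clusterings, with 103 and 101 nuclear member UMIs each.

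Totals without mt genes gave an mt ratio of 1.60, a nuclear ratio of -0.84, a nuclear median of -0.79 and 11 calls, against 2.52% of all genes. TMM factors gave 1.06 and -1.37, and 62 calls, against 11.7% of all genes. The median of ratios gave 1.16, -1.27 and a median of -1.23, and 57 calls, against 9.23% of all genes. Of the single genes, mt-Nd6 turned to 0.44 on totals without mt genes and to 0.0011 with the median of ratios, and no other turned. Under these 3 scalings 61, 11 and 16 genes lost their call and 9, 3 and 7 gained one. A minimum of 50 UMIs, no minimum, and an offset of 0.5 in place of the floor gave 72, 73 and 73 calls. Of all genes, 21.6%, 11.8% and 15.6% were called lower in these settings.

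No paired analysis was possible because each group holds 1 library. The depth limits the isoforms and regulators with few UMIs, for which differences under several-fold were not detectable.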

Other observations

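Some subunits of complex V and its inhibitor carry symbols that the selection by name did not take. In hepatocyte-like barcodes Usmg5, a subunit of ATP synthase, had 2235 UMIs in control and 309 in tetYAP 4W (-1.37, -1.55 to -1.20), and 2010107E04Rik, another small subunit, had 2777 and 406 (-1.29, -1.45 to -1.14). Both were called lower, as most Atp5 genes were. Atpif1, the inhibitor of ATP hydrolysis by complex V, had 597 and 175 UMIs (-0.29, -0.54 to -0.04) and was not called. Its ratio lay above those of the 15 Atp5 genes called lower, with intervals apart. The carriers of electrons from fatty acid oxidation to ubiquinone did not differ alike: Etfb had 3310 and 391 UMIs (-1.60, -1.76 to -1.45), Etfa 1745 and 272 (-1.20, -1.39 to -1.02), and Etfdh, which passes the electrons on, 319 and 66 (-0.79, -1.20 to -0.41). These genes were chosen after their values were seen.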
